A study of Mus musculus with 4 samples.

Results

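Antiviral interferon-stimulated genes were followed in γδ T cells of the mouse lung, in mice that lacked Aire and in mice that carried it. The set comprised 35 genes named by symbol, and all 35 stood in the table of 22865 gene symbols. They were split by role into 18 effectors, 4 sensors of foreign nucleic acid and 13 regulators. The cells came from female C57Bl/6 mice aged 10 weeks and were sorted as viable CD45+ TCRgd+ cells that lacked TCRb, CD27 and the Vγ1, Vγ2, Vγ4 and Vγ5 chains. The 2 genotypes were Aire-/- and Aire+/+, with 2 libraries each, and no treatment beyond the genotype is given. Each library was made from 500 cells with Smart-Seq2, which copies whole transcripts from a few cells. Whether the 2 libraries of a genotype came from separate animals is not given, so each p-value rests on the spread of these libraries alone, which may be technical.

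Type I and type III interferons are secreted by cells that detect viral nucleic acid. They bind receptors that activate the kinases JAK1 and TYK2, and the factor ISGF3, of which IRF9 is the DNA-binding part, then binds interferon-stimulated response elements in promoters. The induced genes include effectors that block viral replication, sensors that detect more viral RNA, and regulators that amplify or end the response. Uninfected lymphocytes also carry a basal level of many of these transcripts. Aire is a transcriptional regulator of medullary thymic epithelial cells, where it lets developing T cells meet proteins of other tissues.

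The libraries held 1106891 to 1265239 counts. Aire had 0 counts in all 4, so it checked no genotype label. Levels are given as CPM, counts scaled to a common library size, over an effective size that is the count in tested genes times the TMM scaling factor. The 7 fixed markers of interleukin-17 γδ T cells were all detected in at least 1 library and summed to 3733 to 6110 CPM, and the 4 CD3 chains summed to 1004 to 1532 CPM. B cell transcripts were also present, with all 6 markers detected in at least 1 library. Their sums were 2216 and 1595 CPM in Aire-/- replicates 1 and 2, and 3282 and 2062 CPM in Aire+/+ replicates 1 and 2. All 8 macrophage and monocyte markers were detected, at 113, 162, 454 and 127 CPM in the same order. The 5 plasma cell markers in the table summed to 330, 437, 1710 and 1117 CPM, lower in both Aire-/- libraries. Singly, 3 of the 5 lay lower in Aire-/- and 2 higher, with a median log2 fold change of -0.16. Igj, the antibody joining chain, was called lower by edgeR (adjusted p = 8.1e-06), and it is named after its values were seen. It had 0 and 4 of the 361 and 463 marker counts in Aire-/-, and 1674 and 827 of the 2116 and 1306 in Aire+/+. The gap in the sums came mainly from Igj. Aire+/+ replicate 1 thus had the highest sums of these 3 lists and the lowest CD3 sum. Which cells the transcripts of these lists came from was not tested. The ratio of B cell marker counts to CD3 counts was 1.59 and 1.06 for Aire-/- and 3.27 and 1.35 for Aire+/+. It sets 6 genes against 4 without scaling for length, so it compares libraries and does not show which cell type held more RNA. In bulk libraries a change in the number of cells of a type and a change in RNA per cell cannot be told apart.

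The members differ in what their promoters carry, which their choice did not use. Of the 35 genes 26 had a window in the RefSeq promoter table (GRCm38.p6), running from 250 bases before to 50 bases after the annotated start. Mx1, Mx2, Oas2, Rtp4, Dhx58, Zbp1, Usp18, Parp9 and Parp14 had none. The core of the response element was sought as GAAA, any 2 bases and GAAA again, on both strands, where overlapping matches each count. It stood in 12 of the 26 members (46.2%), against 1079 of 27025 genes with a window (3.99%). By role it was found in 8 of 14 effectors, 2 of 2 sensors and 2 of 10 regulators. With the bases CT required after it, 7 of 26 members matched (26.9%), against 0.303% of all genes. A match is a stretch of letters and not a measured binding site.

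Stretches upstream of the start are shown for 8 members, chosen to compare close paralogs and to set a regulator beside effectors. Each is read 5′ to 3′ on the gene's strand, with the matched cores in capitals and up to 20 bases on either side. TTTC, 2 bases and TTTC is the same core on the opposite strand.
Isg15, chr4:156200855-156200916, minus strand: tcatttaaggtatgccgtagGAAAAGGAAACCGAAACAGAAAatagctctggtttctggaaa
Ifit1, chr19:34640765-34640833, plus strand: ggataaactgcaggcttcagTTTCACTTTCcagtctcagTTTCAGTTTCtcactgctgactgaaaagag
Ifit3, chr19:34583353-34583436, plus strand: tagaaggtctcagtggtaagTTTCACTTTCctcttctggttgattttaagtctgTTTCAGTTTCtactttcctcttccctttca
Oas1a, chr5:120907526-120907565, minus strand: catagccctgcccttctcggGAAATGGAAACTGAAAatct
Oas1g, chr5:120887614-120887651, minus strand: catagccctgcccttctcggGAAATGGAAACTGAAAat
Oas3, chr5:120777705-120777754, minus strand: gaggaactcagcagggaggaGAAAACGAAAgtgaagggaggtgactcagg
Bst2, chr8:71537567-71537622, minus strand: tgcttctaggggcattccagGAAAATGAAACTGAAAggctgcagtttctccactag
Rsad2, chr12:26456543-26456592, minus strand: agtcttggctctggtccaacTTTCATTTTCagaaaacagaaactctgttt

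Isg15 had 3 overlapping cores, the most of any member, from base -78 to base -57 relative to its start. Ifit1 and Ifit3, neighbouring paralogs, each had 2 separate cores on the strand opposite the gene. The Oas1a and Oas1g stretches carry the same capitals at nearly the same distance from the start. Matches lay after the start in Ifih1, Eif2ak2 and Ddx58, and at both annotated starts of Trim30a, before one and after the other.

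**Figure D1:**
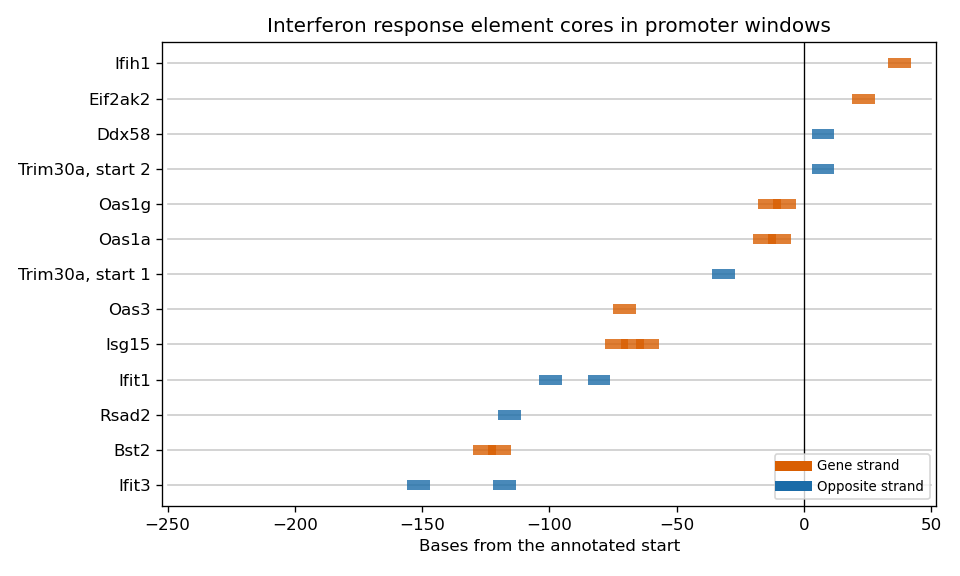
Positions of the response element core in the promoter windows of the 12 matching members, with bases from the annotated start on the x axis and 1 line per window; bars are orange for the gene's strand and blue for the opposite strand. Isg15 has 3 overlapping bars, Ifit1 and Ifit3 have 2 each, and the Ifih1, Eif2ak2 and Ddx58 bars lie after the start.

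The members also cluster in the genome. By RefSeq coordinates (GRCm38) 16 of them lie in 6 groups with gaps of at most 200 kb between neighbours. The Ifit2, Ifit3 and Ifit1 genes span 99.5 kb (chr19:34550550-34650009), and Oas2, Oas3, Oas1g and Oas1a span 177 kb (chr5:120730333-120907544). The other groups are Oasl2 with Oasl1, Mx1 with Mx2, Rsad2 with Cmpk2, and Parp14 with Dtx3l and Parp9. Exons of 13 members overlap another gene in GENCODE M21, 9 of them one on the opposite strand, and strand-specific counting is not stated. Parp9 and Dtx3l share 558 bases at their heads, so a read there cannot be assigned to one of them. Near-identical paralogs such as Oas1a and Oas1g may likewise have lost or shared reads, which makes their values uncertain.

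Transcripts of nearly every member were found in these libraries, for which no infection is given. B cell markers were counted in all 4 as well, at 1.06 to 3.27 times the CD3 counts, a ratio not scaled for gene number or length. Which cells the member transcripts came from was not tested. At least 1 count in every library was seen for 33 of 35 members (94.3%), against 59.4% of all genes in the table. The exceptions were Mx2, with 0 counts in Aire+/+ replicate 2, and Oas1g, with 0 counts in all 4. For Oas1g a count of 0 allows up to 3 counts, or 2.42 to 2.83 CPM, which covers counting error only. A low-count filter kept 28 members for testing (80%, against 42.8% of all genes in the table). These were 12 of 18 effectors, 4 of 4 sensors and 12 of 13 regulators. The 7 left out were Ifit2, Ifit3, Oas1a, Oas1g, Mx2, Rsad2 and Usp18.

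Together the members took a small and similar share of each library. They summed to 1965 and 2124 CPM for Aire-/- and 2103 and 1907 CPM for Aire+/+. Those groups overlap, with means of 2044 ± 112 and 2005 ± 139 CPM (SD, n = 2 each). As a share of all counts they made up 0.188% (Wilson 95% interval 0.18 to 0.196) and 0.204% (0.195 to 0.212) in Aire-/-, and 0.206% (0.198 to 0.214) and 0.193% (0.185 to 0.201) in Aire+/+ libraries. These intervals cover counting error only, since reads without molecular identifiers are not independent molecules.

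The split by role was less even. Effector sums were 980.1 and 959.9 CPM for Aire-/- and 844.4 and 867.6 CPM for Aire+/+, so the groups did not overlap. Most of each sum came from Samhd1 (434 and 454 against 440 and 377 CPM) and Eif2ak2 (352 and 225 against 241 and 295 CPM). Each of these genes overlapped between the genotypes, and the effector sums mainly reflect them. Of all member counts over the 4 libraries, Samhd1 alone took 21% and Eif2ak2 13.7%. Sensor sums were 136.1 and 188.6 against 180.2 and 103.5 CPM, and overlapped. Regulator sums were 848.5 and 975.9 against 1078 and 936 CPM, and overlapped too. With 2 libraries against 2, an exact permutation test of a single value cannot give a p below 0.333, so none is given for these sums.

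Levels of different genes can be compared only per length, here as CPM per kilobase of the longest annotated transcript, averaged over the 4 libraries. Samhd1 led at 109 CPM per kilobase, followed by Eif2ak2 at 64.5, Ifi35 at 46, Bst2 at 40.2, Trim25 at 38.2 and Isg15 at 33.4. Samhd1 degrades the deoxynucleotides that viruses need for DNA synthesis, and Eif2ak2 is PKR, the kinase that stops translation on double-stranded RNA. Samhd1 was first in every library. Eif2ak2 was second in Aire-/- replicate 1 and Aire+/+ replicate 2, but lay below Bst2 in Aire-/- replicate 2 and below Trim25 in Aire+/+ replicate 1. Eif2ak2 was above Ifi35, and Ifi35 above Isg15, in every library, while Bst2 and Trim25 changed places with their neighbours from library to library. At the other end stood Rsad2 at 1.63, Mx2 at 1.46, Oas1a at 0.913 and Ifit3 at 0.639 CPM per kilobase. Those genes are among the most strongly induced in virus-infected cells, and here each had between 0 and 13 counts per library.

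**Figure D2:**
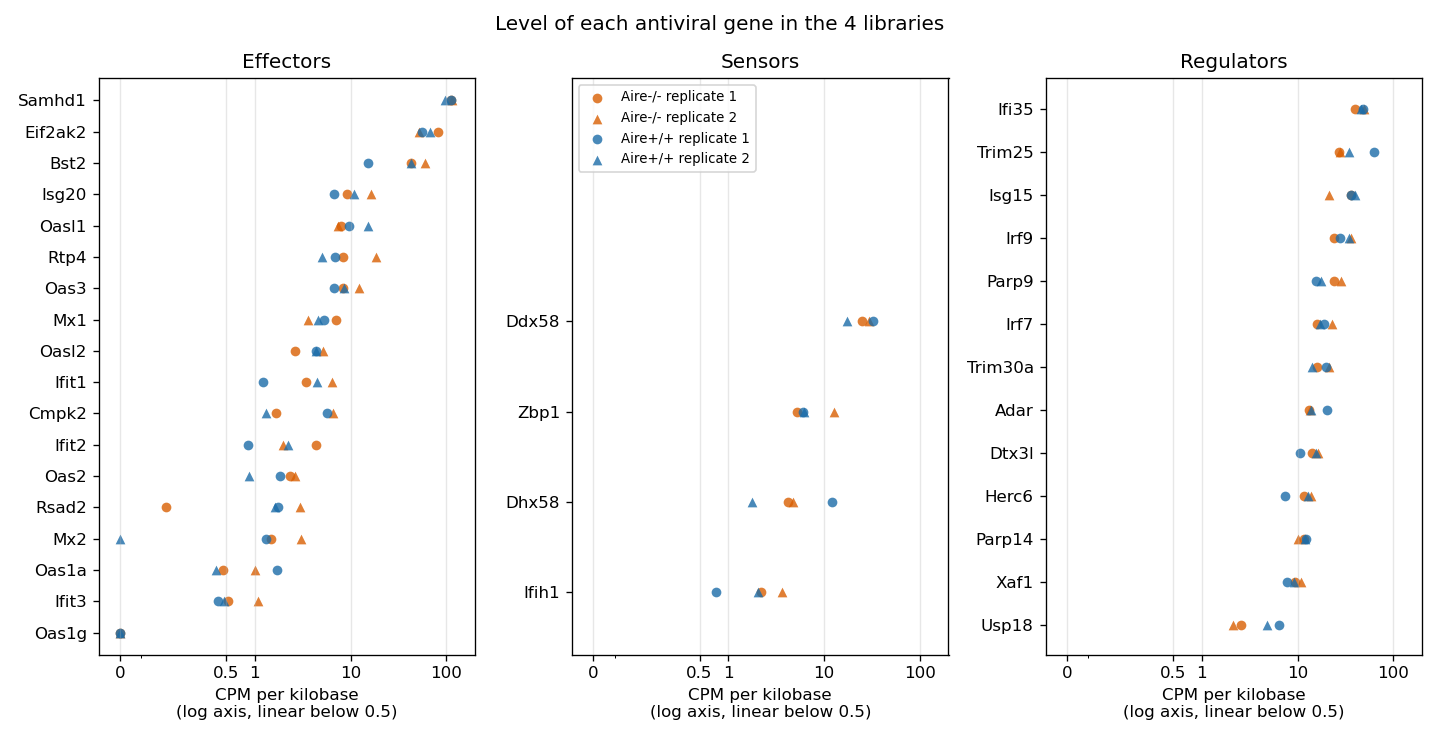
CPM per kilobase of each member in each library, on a log axis that is linear below 0.5, in 1 panel per role; orange is Aire-/-, blue is Aire+/+, circles are replicate 1 and triangles replicate 2. Samhd1 and Eif2ak2 lie at the top, Oas1g is at 0 in every library, and regulators cover a narrower range than effectors.

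No member differed between the genotypes past the threshold. The edgeR quasi-likelihood test called 0 of the 28 tested members at an adjusted p under 0.05, where it called 0 (0%) of 9783 genes higher and 2 (0.0204%) lower in Aire-/- libraries. DESeq2's Wald test and limma-voom also called 0 members, where they called 0.0307% and 0.0102% of all genes lower and 0% higher. At an unadjusted p under 0.05 there was 1 member higher, Parp9, and 1 lower, Trim25, against 2.8% and 2.77% of all genes tested. The log2 fold change was above 0 for 19 of the 28, against 50.9% of all genes, with a median of 0.13 against 0.01. Leaving out replicate 1 of the Aire-/- group gave a median of 0.33, and leaving out its replicate 2 gave 0.03. Leaving out replicate 2 of the Aire+/+ group gave 0.02, so the median moved with single libraries. These fits filter anew and hold 30 or 31 members. Single members moved as well, and for 27 of the 28 at least 1 left-out library changed the sign or shifted the log2 fold change by over 1.5 times. The exception was Parp9, at 0.54 to 0.78. Near 0 a small shift passes that ratio, as for Samhd1, which stood at 0.12 and ranged from 0.01 to 0.23. The share of all genes that moved so is not given, so the count does not set the members apart. The Aire-/- pair lay wholly above the Aire+/+ pair for 5 tested members and wholly below it for 5, where 17.1% and 17.3% of all genes did so. The first 5 were Parp9, Rtp4, Xaf1, Ifih1 and Oas2, and the other 5 were Trim25, Isg15, Adar, Parp14 and Oasl1. Counting every member with a count, whatever the filter, 22 of 34 had the higher mean CPM in Aire-/- libraries, against 51.3% of genes with a count.

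**Figure D3:**
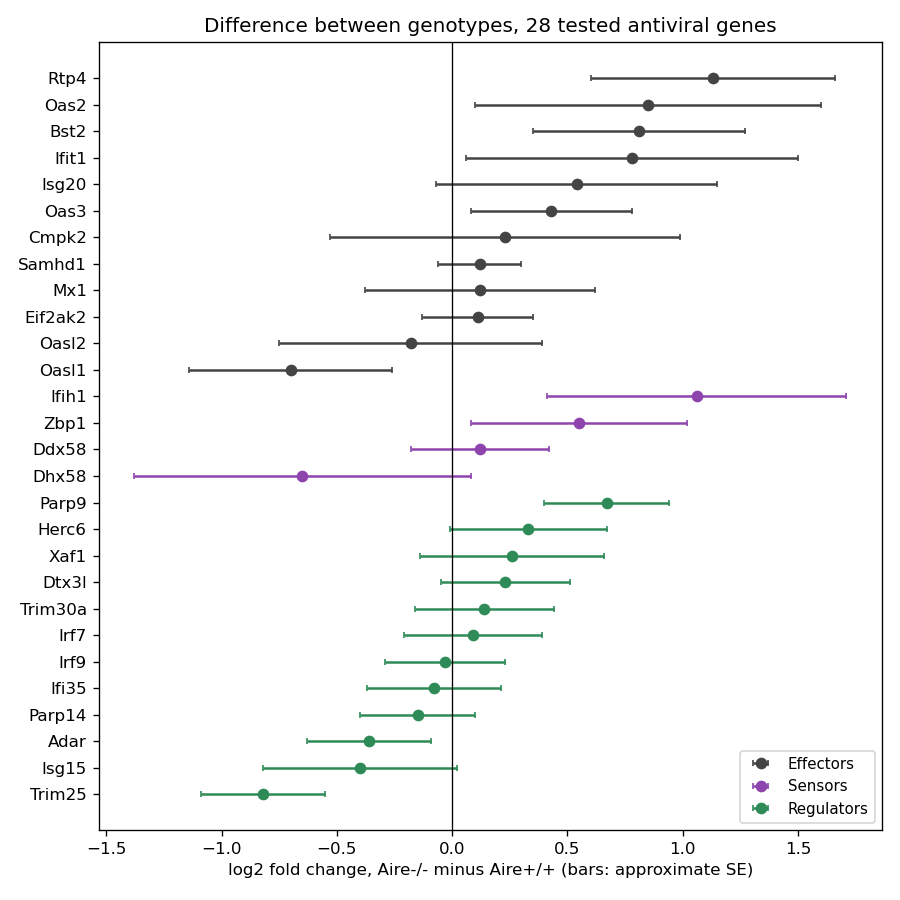
Log2 fold change of each tested member, Aire-/- minus Aire+/+ from the edgeR fit, with an approximate SE as the bar; colours mark the roles. Rtp4 and Ifih1 lie farthest to the right and Trim25 farthest to the left, at 1.13, 1.06 and -0.82, and no member passed the test over all genes.

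Among the effectors 10 of 12 tested lay above 0, and the median was 0.33 on the log2 scale. For the same 12 genes it was 0.79 when Aire-/- replicate 1 was left out, 0.20 when its replicate 2 was, and 0.22 when Aire+/+ replicate 1 was, each time with 9 above 0. The 2 most abundant differed between genotypes by less than their SE. Samhd1 stood at 434 and 454 CPM for Aire-/- and 440 and 377 CPM for Aire+/+ (log2 fold change 0.12, SE 0.18). The groups overlapped, and only Aire+/+ replicate 2 was somewhat low. Eif2ak2 stood at 352 and 225 against 241 and 295 CPM (0.11, SE 0.24), with its highest and its lowest value both in Aire-/- libraries.

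Rtp4 had the largest fold change of any tested member. It encodes a transmembrane protein that interferon induces in lymphocytes. Its levels were 15.5 and 33.9 CPM for Aire-/- and 12.9 and 9.41 CPM for Aire+/+, on 11 to 36 counts. The groups did not overlap, and Aire-/- replicate 2 stood 2.19-fold above the next library. On the log2 scale the difference was 1.13 (SE 0.53, adjusted p = 0.91, edgeR). It was 0.47 without Aire-/- replicate 2 and 1.60 without Aire-/- replicate 1.

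Bst2, or tetherin, holds budding virions at the cell surface and also marks plasmacytoid dendritic cells. It stood at 33.8 and 47.1 CPM for Aire-/- and 12.1 and 34.2 CPM for Aire+/+ (0.81, SE 0.46, adjusted p = 0.92, edgeR). Only Aire+/+ replicate 1 was low, and the groups overlapped. Without that library the log2 fold change was 0.23, and without Aire+/+ replicate 2 it was 1.73. The 6 plasmacytoid dendritic cell markers summed to 123, 146, 206 and 147 CPM in Aire-/- replicates 1 and 2 and Aire+/+ replicates 1 and 2. Of these 6 Klk1 had 0 counts in every library, and 3 passed the filter. Aire+/+ replicate 1, where this sum was highest and Bst2 lowest, also had the highest B cell and macrophage sums. The part of any of these cells in the Bst2 values was not tested.

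The Ifit proteins bind viral RNA that lacks the host's cap methylation and block its translation. Ifit1 stood at 9.13 and 17 CPM for Aire-/- and 3.23 and 12 CPM for Aire+/+, on 4 to 18 counts (0.78, SE 0.72, adjusted p = 0.97, edgeR). Its log2 fold change was 0.27 without Aire-/- replicate 2. Leaving out Aire+/+ replicate 1 gave 0.11, and leaving out the other Aire+/+ library gave 1.97. Ifit2 had 18 and 8 counts against 4 and 10, and Ifit3 had 1 and 2 against 1 and 1. Aire+/+ replicate 1 had the lowest level of both Ifit1 and Ifit2. Per length, Ifit3 stood at 0.639 and Ifit1 at 3.89 CPM per kilobase over the 4 libraries, although both promoter windows shown above hold 2 cores.

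The oligoadenylate synthetases make the messenger that activates RNase L. Oas3, the largest form, was the most abundant of the 4 Oas genes per length (8.93 CPM per kilobase). It stood at 39.3 and 57.5 CPM for Aire-/- and 31.5 and 40.2 CPM for Aire+/+ (0.43, SE 0.35). Oas2 stood at 9.13 and 10.4 against 7.27 and 3.42 CPM (0.85, SE 0.75), with groups that did not overlap on 4 to 11 counts. Oas1a had 1 and 2 counts against 4 and 1. The catalytically inactive relative Oasl1, which limits Irf7 translation, lay the other way, at 17.4 and 16 against 21 and 33.4 CPM (-0.70, SE 0.44, adjusted p = 0.94, edgeR). Its groups did not overlap, and Aire+/+ replicate 1 was close to the Aire-/- pair. Its neighbour Oasl2, which is active, stood at 8.22 and 16 against 13.7 and 13.7 CPM (-0.18, SE 0.57), with only Aire-/- replicate 1 low.

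Rsad2 and Cmpk2 are divergent neighbours, 12.7 kb apart. Rsad2 encodes viperin, which makes a chain-terminating nucleotide, and Cmpk2 supplies its substrate. Rsad2 had 1 and 13 counts for Aire-/- and 9 and 8 for Aire+/+. Cmpk2 had 6 and 23 against 23 and 5 counts (0.23, SE 0.76). Both were high in Aire-/- replicate 2 and low in Aire-/- replicate 1, and they parted in Aire+/+ replicate 2. The log2 ratio of Cmpk2 in replicate 1 over replicate 2 was -1.98 in Aire-/- and 2.12 in Aire+/+ libraries. Its log2 fold change turned to -1.06 without Aire-/- replicate 2 and to -0.46 without Aire+/+ replicate 2.

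The remaining effectors had low counts. Isg20, an RNA exonuclease, stood at 10 and 17.9 CPM for Aire-/- and 7.27 and 12 CPM for Aire+/+ (0.54, SE 0.61), with overlapping groups. Mx1 stood at 23.7 and 12.3 against 17.8 and 15.4 CPM (0.12, SE 0.50), with both extremes in Aire-/- libraries. Mx2 had 4 and 8 against 4 and 0 counts. Mx proteins are GTPases that trap viral nucleocapsids, but RefSeq lists both genes as transcribed pseudogenes in this C57BL/6J assembly, so these counts do not stand for intact protein.

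The 4 sensors ranged widely in level and in how well their libraries matched. Of these 3 lay above 0 (median 0.33), against 1 (median -0.12) without Aire-/- replicate 2. Ddx58 encodes RIG-I, which detects viral RNA with a 5′ triphosphate, and was the most abundant sensor per length (26.2 CPM per kilobase). It stood at 96.8 and 115 CPM for Aire-/- and 127 and 67.6 CPM for Aire+/+ (log2 fold change 0.12, SE 0.30), with both extremes in Aire+/+ libraries. Ifih1 encodes MDA5, which detects long double-stranded RNA, and stood at 11.9 and 19.8 against 4.04 and 11.1 CPM. Its groups did not overlap, on 5 to 21 counts, and the log2 difference was 1.06 (SE 0.65, adjusted p = 0.93, edgeR). It was 0.65 without Aire-/- replicate 2. Leaving out Aire+/+ replicate 1 gave 0.50, and leaving out the other Aire+/+ library gave 1.94.

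Dhx58 encodes LGP2, which aids MDA5 and has no signalling domain of its own. It stood at 10 and 11.3 CPM for Aire-/- and 29.1 and 4.28 CPM for Aire+/+ (-0.65, SE 0.73). The 2 Aire+/+ libraries differed by 2.77 on the log2 scale, the widest gap of any tested member within a genotype, and lay on either side of the Aire-/- pair. Its direction turned to 1.29 without Aire+/+ replicate 1. An antisense gene, Dhx58os, overlaps its exons. Zbp1, a sensor of Z-form nucleic acid that can start necroptosis, stood at 17.4 and 42.4 against 20.2 and 20.5 CPM (0.55, SE 0.47). Aire-/- replicate 2 was 2.07-fold above the next library, and without it the log2 fold change was -0.23.

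The regulators divided evenly, with 6 of 12 tested above 0 and a median of 0.03, or 0.29 without Aire-/- replicate 1 and -0.08 without Aire-/- replicate 2. Irf7 and Irf9 carry the transcriptional arm, Irf7 as the amplifier of interferon-α production and Irf9 as part of ISGF3. Irf9 stood at 92.3 and 141 CPM for Aire-/- and 107 and 133 CPM for Aire+/+ (-0.03, SE 0.26). Irf7 stood at 51.1 and 73.5 against 61.4 and 55.6 CPM (0.09, SE 0.30). For both genes the Aire-/- libraries held the highest and the lowest value, so the groups overlapped fully.

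Trim25, the ubiquitin ligase that helps activate RIG-I, had the smallest p of any member. It lies at chr11:88999403-89020294 (GRCm38, protein-coding), and its exons are free of annotated overlaps. It had 167 and 166 counts for Aire-/- and 434 and 226 for Aire+/+, or 153 and 157 against 351 and 193 CPM. The Aire-/- libraries matched closely and both lay lower, with Aire+/+ replicate 1 far above the other 3. The mean was 155 ± 2.82 against 272 ± 111 CPM (SD, n = 2 each), 1.76-fold lower, with a log2 fold change of -0.82 (SE 0.27, unadjusted p = 0.0096, adjusted p = 0.83, edgeR). Without Aire+/+ replicate 2, so with Aire+/+ replicate 1 alone on that side, the log2 fold change was -1.19. Without Aire+/+ replicate 1 it shrank to -0.33. Aire+/+ replicate 1 was also the library with the most B cell and macrophage transcripts, and the part of that in the Trim25 value was not tested.

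The ADP-ribosyltransferase family member Parp9 and the ubiquitin ligase Dtx3l form a complex that enhances interferon-driven transcription. Parp9 stood at 84.9 and 100 CPM for Aire-/- and 54.9 and 61.6 CPM for Aire+/+, with groups that did not overlap. The genotypes differed by 0.67 on the log2 scale (SE 0.27, unadjusted p = 0.03, adjusted p = 0.89, edgeR). The partner Dtx3l stood at 75.8 and 86.8 against 56.6 and 82.1 CPM (0.23, SE 0.28), where only Aire+/+ replicate 1 was low. Parp14, a related ADP-ribosyltransferase next to them, stood at 86.8 and 75.4 against 91.3 and 89 CPM (-0.15, SE 0.25), and its groups did not overlap. These neighbours therefore lay in different directions, by amounts that did not pass the test.

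Isg15, a ubiquitin-like modifier, is attached to proteins in mouse cells by Herc6 and removed by Usp18. Isg15 stood at 27.4 and 16 CPM for Aire-/- and 27.5 and 29.9 CPM for Aire+/+ (-0.40, SE 0.42, adjusted p = 0.97, edgeR). The nearest values of the 2 genotypes were 27.4 and 27.5 CPM, and only Aire-/- replicate 2 was low. Usp18, which also blocks the interferon receptor, had 5 and 4 counts for Aire-/- and 14 and 10 for Aire+/+. These groups did not overlap, but Usp18 was below the filter, and without any filter the log2 difference was -1.23 (SE 0.79, adjusted p = 0.95, edgeR). Herc6 stood at 55.7 and 66 against 35.6 and 61.6 CPM (0.33, SE 0.34), with Aire+/+ replicate 1 low.

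The other regulators did not pass the test either. Adar, which edits adenosine to inosine in double-stranded RNA and so restrains MDA5, stood at 78.6 and 79.2 CPM for Aire-/- and 121 and 81.3 CPM for Aire+/+ (-0.36, SE 0.27). The groups did not overlap, yet Aire+/+ replicate 2 was close to the Aire-/- pair. Xaf1, a proapoptotic interferon target, stood at 24.7 and 28.3 against 20.2 and 24 CPM (0.26, SE 0.40), with 24.7 and 24 CPM as the nearest values of the 2 genotypes. Trim30a, a brake on NF-κB signalling, had a log2 fold change of 0.14 (SE 0.30), and Ifi35 one of -0.08 (SE 0.29), both with overlapping groups.

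High values of the members gathered in 1 library. Aire-/- replicate 2 had the highest level of all 4 libraries for 19 of the 28 tested members (67.9%), against 26.7% of all genes tested. Aire-/- replicate 1 was highest for 2 members, Aire+/+ replicate 1 for 5 and Aire+/+ replicate 2 for 2. The excess over the next library was 2.19-fold for Rtp4, 2.07-fold for Zbp1, 1.67-fold for Ifih1 and 1.5-fold for Isg20, and under 1.5-fold for the other 15. Isg15, Mx1, Eif2ak2, Oasl1 and Parp14 went the other way, with their lowest level in that library. On log2(CPM + 1), the median member stood at 0.28 above its own mean in Aire-/- replicate 2, against -0.04, 0.02 and -0.02 in Aire-/- replicate 1 and Aire+/+ replicates 1 and 2. By role that library's median was 0.49 for effectors, 0.52 for sensors and 0.22 for regulators, and it was 0.00 for all genes tested. Among the lists described below, Aire-/- replicate 2 was highest for 58.3% of 12 tested interferon-inducible GTPases and 52.9% of 17 receptor and relay genes. It was highest for 31.2% of 16 nucleic acid sensing adaptors and 28.6% of 35 other interferon-stimulated genes.

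**Figure D4:**
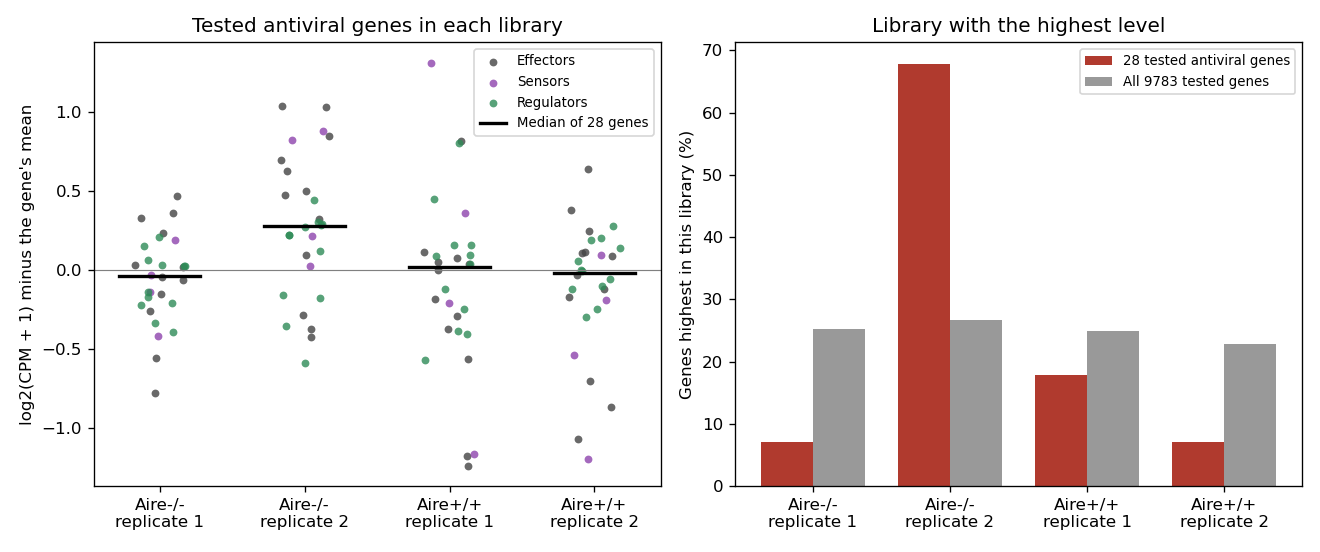
Left, log2(CPM + 1) of each tested member minus its mean over the 4 libraries, 1 point per gene coloured by role, with the median of all members as a black line; right, the percentage of genes whose highest level lies in each library, for the members (red) and all genes tested (grey). The median is 0.28 in Aire-/- replicate 2, which is highest for 67.9% of members and 26.7% of all genes.

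Libraries of the same genotype differed in these genes. The median absolute difference between the paired libraries, on log2(CPM + 1), was 0.45 in Aire-/- and 0.44 in Aire+/+ for the members, against 0.36 and 0.34 for all genes tested. The difference between genotype means exceeded both of those gaps for 2 members (7.14%), against 22.8% of all genes tested. Aire-/- replicate 2 had the lowest B cell marker sum, 1595 CPM, and the highest sum of interleukin-17 γδ T cell markers, 6110 CPM. Their part in the high member levels of that library was not tested.

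The rest of the pathway is given by lists that hold none of the 35 genes. Of 21 interferon genes in the table, 9 had any count and their sum was 2 to 11 counts per library. Ifnb1 had 0 counts in all 4, and Ifng, the type II interferon of lymphocytes, had 1 to 3. Among interferon receptors and their relay 13 of 17 tested genes lay above 0 (median log2 fold change 0.18), and 0 were called by edgeR at the adjusted threshold while 3 had an unadjusted p under 0.05. Ifngr1, a chain of the interferon-γ receptor, had the smallest p of that list, at 1736 ± 479 CPM for Aire-/- and 937 ± 259 CPM for Aire+/+ (SD, n = 2 each; 0.89, SE 0.22, adjusted p = 0.67, edgeR). Its log2 fold change was 1.15 without Aire-/- replicate 1 and 1.20 without Aire+/+ replicate 2. It was 0.58 without Aire-/- replicate 2 and 0.63 without Aire+/+ replicate 1. Irf1 stood at 190 ± 25.9 against 128 ± 18.9 CPM (0.57), and Socs1, an inhibitor of the JAK kinases, at 11.2 ± 2.88 against 18.8 ± 3.7 CPM (-0.74).

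Adaptors of nucleic acid sensing were even, with 8 of 16 tested above 0 and a median of -0.01. Mavs, the adaptor that RIG-I and MDA5 share, stood at 31.7 ± 12.5 CPM for Aire-/- and 19.2 ± 1.95 CPM for Aire+/+ (0.72, SE 0.43, adjusted p = 0.93, edgeR). The kinase Ikbke had a log2 fold change of -0.65, Nlrc5, the activator of class I genes, one of 0.78, and the DNA sensor Aim2 one of -0.44. Of 35 other interferon-stimulated genes 20 lay above 0 (median 0.16), where Phf11b had 1.35, Ifi203 0.60 and Slfn2 0.52. None of these genes was called by edgeR, and at an unadjusted p under 0.05 there was 1 adaptor and there were 3 other interferon-stimulated genes, all higher in Aire-/- libraries.

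The interferon-inducible GTPases, which interferon-γ induces strongly, were the list where most genes lay one way. Of its 18 genes 12 were tested, and all 12 lay above 0, between 0.39 and 1.24. The median was 0.89 against 0.13 for the antiviral members, and 0 were called over all genes. Among the untested, Gbp11 had 7 and 4 counts for Aire-/- against 1 and 1 for Aire+/+. Iigp1 leaned the other way, with 2 and 1 against 2 and 8. The Aire-/- pair lay wholly above the Aire+/+ pair for 11 of the 12, against 5 of the 28 antiviral members and 17.1% of all genes. Leaving out 1 library gave medians of 0.66 (Aire+/+ replicate 1) to 1.18 (Aire-/- replicate 1), and 11 of the 12 lay above 0 without Aire-/- replicate 2. Ifi47 had the smallest p (1.21), followed by Irgm1 (1.07), Gbp2 (1.12) and Igtp (0.92). With 1 library left out, Ifi47 ranged from 0.94 (Aire+/+ replicate 1) to 1.51 (Aire+/+ replicate 2). Igtp was at 0.32 without Aire-/- replicate 2. Cell type markers differed in the same libraries. All 7 interleukin-17 γδ T cell markers lay above 0 (median 0.38, 0 called), and all 6 B cell markers lay below 0 (median -0.42, 0 called). Without Aire+/+ replicate 1 these medians were 0.42 and -0.06, with 2 of the 6 B cell markers above 0. All 4 tested macrophage and monocyte markers lay below 0 (median -1.75, 0 called). Without Aire+/+ replicate 1 their median was -0.04 over the 3 that were fitted. The 2 tested natural killer markers lay below 0 (median -1.16, 0 called), and all 4 CD3 chains lay above 0 (median 0.25, 0 called). Of the 5 plasma cell markers 2 lay above 0 and 3 below (median -0.16), and Igj alone was called. The part of these marker differences in the GTPase values was not tested. GTPases and antiviral members were measured in the same libraries, and whether they differ from each other was not tested. In Aire-/- replicate 2 the median GTPase stood 0.71 above its own mean, and in Aire-/- replicate 1, where the antiviral median was -0.04, it stood at 0.37.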

How the data were processed

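The authors deposited raw whole-number read counts per gene symbol, 1 column per library, per the file headers. TopHat2 2.0.10, Cufflinks 2.2.1 and mm10 are named, without role, per the submitters' processing notes. For the counting tool, annotation, strand setting and duplicate handling, the sources used here give no statement. Reads cannot be split between overlapping genes or close paralogs in such counts.

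Counts of 9783 genes that passed filterByExpr (minimum count 10, total 15) were tested on genotype with edgeR 4.0.16 (R 4.3.3, TMM, quasi-likelihood) and Benjamini-Hochberg adjustment over all of them. Log2 fold changes give Aire-/- relative to Aire+/+. Its SE is approximate, the fold change over the square root of F. The members, lists, tests and named genes (all members and the 4 smallest p of each other list) were chosen with earlier results of these data known. One of the genes so named is not reported here. Coordinates and promoters came from RefSeq GRCm38.p6, which matched 35 of 35 symbols and 26 windows, and lengths from GENCODE M21. Alternatives were DESeq2 1.42.0, limma-voom (limma 3.58.1), other scalings and filters, a replicate block and leaving out each library. In 5 simulations with 200 altered genes each, 90.8% of 4-fold and 12% of 2-fold shifts were found, and 3.2% of calls were false. There all genes shared a single spread between libraries, and no library was shifted as a whole. Altered genes were drawn from all tested genes, so these rates are not the power for the members. At 1106891 to 1265239 counts per library, 7 members were below the filter and untested. Python 3.11.15 was used for summaries.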

Additional observations from a re-analysis of the deposited data

How the results depend on the processing

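Under every alternative that kept all 4 libraries, 0 members were called, the number above 0 was 18 or 19 of 27 or 28 tested (22 of 34 with no filter), and the median log2 fold change was 0.09 to 0.16. No shared effect of the replicate number was seen (the deviations of both replicates 1 correlated at -0.077 over 9783 genes). Whether equal numbers mark a shared litter or day is not given, and this value cannot tell. With the replicate block 0 members were called and their median was 0.16, and Ifngr1 alone of 43 named genes crossed the threshold. With no filter Ifngr1 and Ifi47 did. The share of all genes called in these fits is not given, so whether such calls stand out cannot be told. Leaving out 1 library moved the median more, from 0.02 to 0.33. A genotype left with 1 library then borrows its spread from the other, so no calls are given for those fits. Of the 43 genes 13 changed sign there and 0 under the other alternatives, with these ranges: Oasl2 -0.73 to 0.23, Mx1 -0.43 to 0.51, Cmpk2 -1.06 to 1.63, Eif2ak2 -0.24 to 0.39, Ddx58 -0.26 to 0.64, Dhx58 -1.44 to 1.29, Zbp1 -0.23 to 1.06, Irf7 -0.20 to 0.33, Irf9 -0.38 to 0.25, Herc6 -0.03 to 0.77, Trim30a -0.09 to 0.38, Dtx3l -0.02 to 0.52 and Ifi35 -0.26 to 0.08. The cause was not tested. Members detected in every library numbered 26 at 5 counts or more and 21 at 10 or more, against 33 at 1, and the longer promoter motif matched 7 members against 12. For members of a few counts, 1 library with a handful of reads sets the value.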
